A study of Homo sapiens with 15 samples.

Results

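The natriuretic peptide system was followed through cardiac differentiation of human embryonic stem cells in 7 genes, which were chosen by name: the peptide genes NPPA, NPPB and NPPC, the receptor genes NPR1, NPR2 and NPR3, and CORIN. Each symbol matched 1 of the 60605 genes in the deposited table, and 5 of the 7 reached 1 FPKM in at least 1 library. FPKM is the read count of a gene scaled by the length of its exons and by the library total, which is meant to allow comparison between genes. The library kit in the labels leaves a doubt about the scaling by length, as described under the processing. NPPC and NPR3 stayed under 1 FPKM in all 15 libraries and were described but not tested. NPPA passed that minimum only through the NP-IWP2 library of day 10 and the passaged libraries of days 5 and 10. CORIN passed it only through the NP-ctrl library of day 7 and the libraries of day 10.

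All libraries came from wild-type H1, 1 established line of human embryonic stem cells, in 1 time course. Cells were taken to mesendoderm progenitors with CHIR99021, which activates WNT signaling, and days 0, 1 and 2 had 1 library each that all arms share. Thereafter NP-ctrl cells stayed in their wells and differentiated spontaneously, NP-IWP2 cells stayed in their wells with IWP2 added, which blocks the release of WNT ligands, and passaged cells were taken off and replated on day 2 and received no WNT inhibitor. Each arm had 1 library on each of days 3, 5, 7 and 10. In the study passaging could go with the ROCK inhibitor Y27632 and a lower replating density. Within these libraries neither can be told apart from the dissociation itself. For cardiac fate the paper reports other experiments that varied the split ratio or left out Y27632, in which passaged cells still became cardiac.

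Total counts were 13254723 to 20250115 per library, and the mitochondrial genome took 1.53% to 10.3% of them. No library had a biological replicate. The 95% intervals of levels and ratios below were exact Poisson or Clopper-Pearson intervals that cover counting error only, and p-values of the fits measured the spread of an arm difference over the 4 days within 1 series of cultures. In bulk samples fewer cells of a type and less RNA per cell cannot be told apart. The 6 pluripotency markers summed to 1655 FPKM on day 0 and to between 36.9 and 63.6 FPKM on day 10. The 8 cardiomyocyte markers were at 2.94 FPKM in sum on day 0 and at 490.4, 1465 and 3758 FPKM in NP-ctrl, NP-IWP2 and the passaged arm on day 10.

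Natriuretic peptides are hormones that lower blood volume and pressure. NPPA encodes atrial natriuretic peptide and NPPB encodes B-type natriuretic peptide, both made mainly by heart muscle cells, while NPPC encodes C-type natriuretic peptide, which acts locally in bone, vessels and other tissues. CORIN is a membrane serine protease of heart muscle that cuts the atrial prohormone into its active form. NPR1 is the receptor of the atrial and B-type peptides and NPR2 that of the C-type peptide, and both make cyclic GMP inside the cell when bound. NPR3 lacks that enzyme activity and clears the peptides by uptake. In the embryo NPPA and NPPB are early markers of the working heart muscle.

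The 3 peptides share a ring of 17 residues closed by a disulfide bond, the part that binds the receptors. The coding sequence of this ring is shown for NPPB and NPPC because NPPB carried most of the peptide transcripts and NPPC is the member whose peptide has the other receptor, NPR2. The sequences were read from GENCODE release 44 transcripts on GRCh38, 5′ to 3′ on the minus strand that carries both genes, and capitals mark the 37 of 51 bases (72.5%) that are identical in both. Each run lies in exon 2 of 3 and wholly within coding sequence, at chr1:11858218-11858268 for NPPB and chr2:231925428-231925478 for NPPC.
NPPB: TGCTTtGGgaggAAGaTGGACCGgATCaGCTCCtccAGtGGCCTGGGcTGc
NPPC: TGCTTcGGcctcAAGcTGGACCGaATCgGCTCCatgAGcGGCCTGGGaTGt
In both genes, 13 of the 17 codons encoded the same residue.

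NPPB (ENSG00000120937, chr1:11857464-11858945, minus strand) was the peptide gene with the highest level of any library, and passaged cells carried most of it. On the shared days its FPKM was 0.42, 0 and 1.53. NP-ctrl cells measured 9.21, 2.97, 7.25 and 3.78 FPKM on days 3, 5, 7 and 10. NP-IWP2 cells measured 7.12, 4.19, 10.4 and 2.23 FPKM. Passaged cells measured 0.21 FPKM on day 3 and then 38.39, 27.32 and 78.25 FPKM. From day 5 on, every passaged library lay above all libraries of the other arms, while on day 3 the passaged library lay below both others. The passaged level on day 5 was 12.9-fold that of NP-ctrl (95% interval 9.05 to 19.0) and on day 10 it was 20.7-fold (14.8 to 29.8). Against NP-IWP2 the ratios were 9.15-fold (6.65 to 12.9) on day 5 and 35.1-fold (23.6 to 54.5) on day 10.

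The low passaged value of NPPB on day 3, 1 day after replating, rested on 2 counts where NP-ctrl had 106 and NP-IWP2 68. The ratio of passaged to NP-ctrl was 0.0224 (0.00268 to 0.0830), and that to NP-IWP2 was 0.0290 (0.00344 to 0.109). It also lay below the day 2 library from which all arms started, which held 22 counts, with a ratio of 0.135 (0.0153 to 0.547). Within passaged cells the gene then moved from 2 counts on day 3 to 415 on day 5. The mitochondrial share was lowest of the 15 in passaged cells on day 3 (1.53%) and highest in those of day 10 (10.3%). Between days 5 and 7 the passaged share rose from 5.05% to 6.14%, while NPPB went from 38.39 to 27.32 FPKM. The part of this share in the NPPB values was not tested.

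NPPA (ENSG00000175206, chr1:11845709-11848345, minus strand) lies 9118 bases from NPPB on the same strand and was measured at far lower levels. On the shared days its FPKM was 0.16, 0.05 and 0.04. NP-ctrl cells stayed between 0.28 and 0.47 FPKM on all 4 days. NP-IWP2 cells measured 0.33, 0.06, 0.39 and 2.71 FPKM on days 3, 5, 7 and 10, and passaged cells measured 0.85, 1.23, 0.60 and 4.64 FPKM. The day 10 libraries of the passaged and NP-IWP2 arms were the highest of the 15, in that order, with 79 and 48 counts where NP-ctrl had 6. On day 10 the passaged level was 11.7-fold that of NP-ctrl (5.12 to 32.7) and 1.71-fold that of NP-IWP2 (1.18 to 2.51). On day 5 the passaged level was 4.31-fold that of NP-ctrl (1.58 to 14.6), from 21 and 5 counts. It was 19.45-fold that of NP-IWP2 (3.13 to 804.5), which held 1 count. On days 3 and 7 the passaged level did not differ from either arm beyond counting error. Neighbours in the order of levels from the third to the twelfth library did not differ beyond counting error. All libraries but the passaged and NP-IWP2 ones of day 10 held 1 to 21 counts each.

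Counts of NPPA carry a limit of their own. CLCN6, a chloride transporter gene on the opposite strand, overlaps NPPA, and its annotated exons cover 286 of the 1120 exonic bases of NPPA (25.5%). Whether reads were counted by strand was not given in the sources used here, so reads of both genes in that stretch cannot be told apart. CLCN6 was at 5.14 to 9.39 FPKM in all libraries and at 9.18, 6.82 and 9.09 FPKM in NP-ctrl, NP-IWP2 and the passaged arm on day 10. Its part in the NPPA values was not tested.

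NPPC (ENSG00000163273, chr2:231921809-231926396, minus strand) was seen on day 0 and at very low counts on days 1 and 10. It had 17 counts on day 0, an FPKM of 0.93 (0.543 to 1.49), and 3 counts on day 1. It had no count on day 2 and in every library of days 3, 5 and 7, where 3 counts would have corresponded to 0.138 to 0.211 FPKM. On day 10 its counts were 5 for NP-ctrl, 0 for NP-IWP2 and 3 for the passaged arm, too few to order the arms. The level on day 0 and that of NP-ctrl on day 10 did not differ beyond counting error (ratio 2.70, 0.955 to 9.35).

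**Figure D1:**
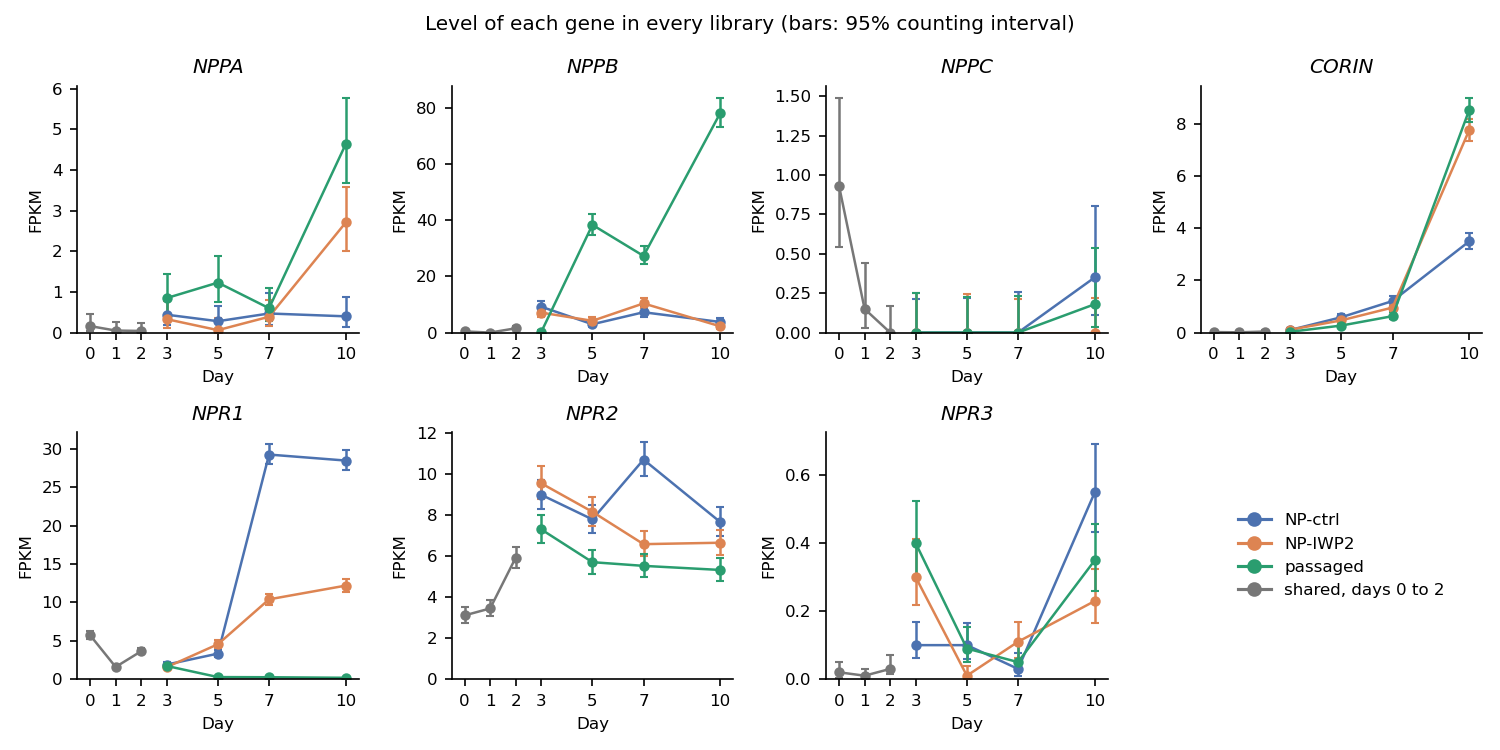
Level of each gene in FPKM (vertical axis, linear, its own range in each panel) against day, with 1 point per library, lines joining the days of an arm and bars for the 95% counting interval. NPPB in passaged cells reached 78.25 FPKM on day 10, NPR1 reached 29.25 FPKM in NP-ctrl on day 7 and stayed at or under 0.26 FPKM in passaged cells from day 5, and CORIN was highest on day 10 in all arms.

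CORIN (ENSG00000145244, chr4:47593999-47838106, minus strand) increased over days in every arm and ended higher in the arms that were passaged or given IWP2. On the shared days it had 1 to 9 counts and at most 0.04 FPKM. NP-ctrl cells measured 0.10, 0.59, 1.21 and 3.50 FPKM on days 3, 5, 7 and 10. NP-IWP2 cells measured 0.11, 0.47, 0.96 and 7.77 FPKM. Passaged cells measured 0.03, 0.27, 0.63 and 8.54 FPKM. Each later day lay above each earlier day within every arm. Until day 7 the passaged library was the lowest of the 3 on each day and on day 10 it was the highest, so the order of the arms turned around. The ratio of passaged to NP-ctrl was 0.297 (0.0723 to 0.921) on day 3, 0.452 (0.305 to 0.660) on day 5 and 0.524 (0.403 to 0.678) on day 7, and then 2.44 (2.19 to 2.72) on day 10. Passaged and NP-IWP2 cells were close on day 10, with a ratio of 1.10 (1.02 to 1.19).

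NPR1 (ENSG00000169418, chr1:153678688-153693992, plus strand), the receptor of the peptides that NPPA and NPPB encode, was lowest in passaged cells from day 5 on, where NPPB was highest. It was at 5.72, 1.58 and 3.63 FPKM on days 0, 1 and 2. On day 3 the arms were alike at 1.89, 1.56 and 1.71 FPKM in NP-ctrl, NP-IWP2 and the passaged arm, values that did not differ beyond counting error. NP-ctrl cells then measured 3.32, 29.25 and 28.47 FPKM on days 5, 7 and 10. NP-IWP2 cells measured 4.54, 10.39 and 12.18 FPKM. Passaged cells measured 0.26, 0.24 and 0.17 FPKM, the lowest of all 15 libraries and, as 20, 18 and 13 counts, not apart from each other beyond counting error. The passaged level was 12.6-fold lower than NP-ctrl on day 5, 121-fold lower on day 7 and 165-fold lower on day 10, where the 95% interval was 96.2 to 311. Against NP-IWP2 it was 17.2-fold lower on day 5 and 70.6-fold lower on day 10 (41.1 to 133). NP-IWP2 cells were themselves 2.81-fold lower than NP-ctrl on day 7 (2.59 to 3.06) and 2.34-fold lower on day 10 (2.16 to 2.53).

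NPR2 (ENSG00000159899, chr9:35791591-35809732, plus strand), the receptor of the C-type peptide, was the steadiest of the 7 genes and was measured in every library. It was at 3.11, 3.45 and 5.93 FPKM on days 0, 1 and 2. NP-ctrl cells measured 9.0, 7.8, 10.72 and 7.67 FPKM on days 3, 5, 7 and 10, NP-IWP2 cells 9.56, 8.17, 6.59 and 6.66 FPKM, and passaged cells 7.31, 5.71, 5.53 and 5.33 FPKM. The passaged library was the lowest of the 3 arms on each of the 4 days. The ratio of passaged to NP-ctrl ran from 0.516 (0.452 to 0.588) on day 7 to 0.812 (0.718 to 0.918) on day 3. Of the 14 steps between neighbours in the order of levels, only that from passaged cells on day 10 to day 1 exceeded counting error.

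NPR3 (ENSG00000113389, chr5:32689070-32791724, plus strand), the clearance receptor, was low in every library. Its highest levels were 0.55 FPKM in NP-ctrl cells on day 10 and 0.40 FPKM in passaged cells on day 3, from 74 and 55 counts. All other libraries were at or under 0.35 FPKM. On day 3 the passaged level was 3.84-fold that of NP-ctrl (2.20 to 7.06) and on day 10 it was 0.634 of it (0.437 to 0.914), so the order of these arms differed between the days.

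**Figure D2:**
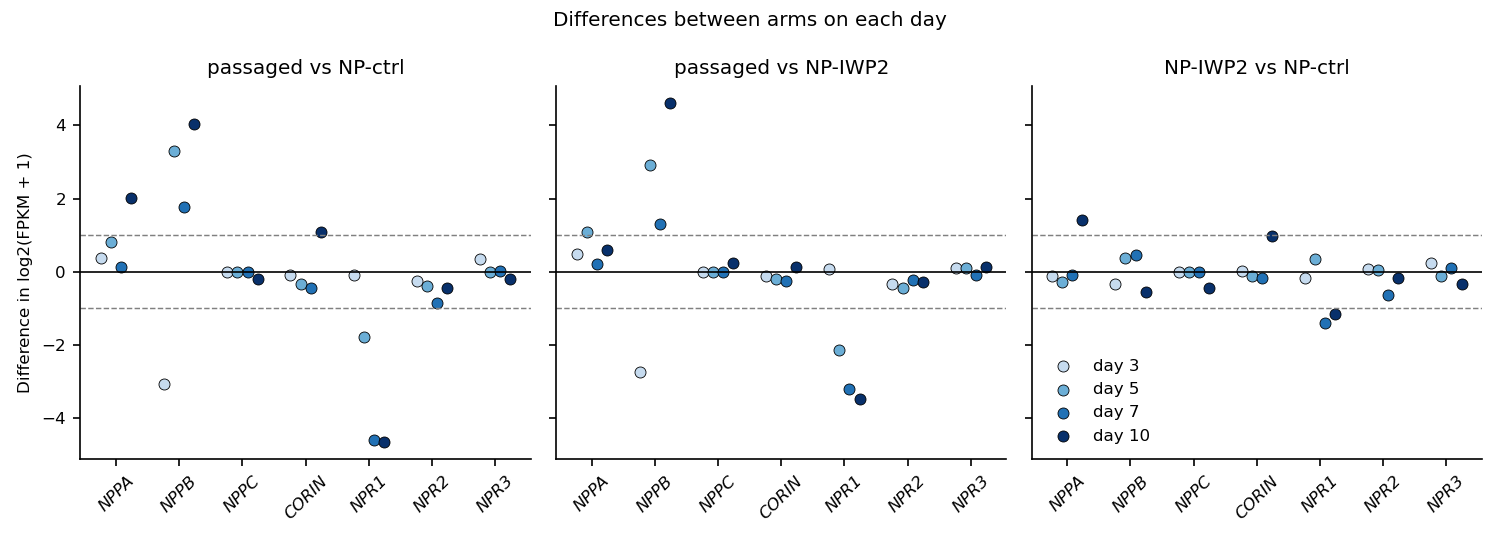
Difference between 2 arms in log2(FPKM + 1) (vertical axis) for each gene (horizontal axis), 1 point per day and 1 panel per pair of arms, with dashed lines at -1 and 1. In both comparisons of passaged cells NPPB was below 0 on day 3 and above 1 on the later days, and NPR1 was near 0 on day 3 and below -1 thereafter.

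Differences of at least 1 in log2(FPKM + 1) (changes of low genes come out too small on this scale) were counted for all 7 genes on each day. Between passaged and NP-ctrl cells there were 9 among 28, of which 5 were higher and 4 lower in passaged cells. They were 1 of 7 genes on day 3 (NPPB, lower), 2 on day 5 and 2 on day 7 (NPPB higher, NPR1 lower), and 4 on day 10 (NPPA, NPPB and CORIN higher, NPR1 lower). Over the 21206 genes that reached 1 FPKM in at least 1 library the shares on these 4 days were 8.49%, 8.16%, 12.6% and 17.4%. The medians of the 7 genes on these days, were -0.19 to 0.00, and those of all genes were -0.09 to 0.03.

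Between passaged and NP-IWP2 cells there were 8 such differences, 4 higher and 4 lower. They were NPPB on all 4 days, NPR1 on days 5, 7 and 10, and NPPA on day 5, where NP-IWP2 held 1 count. The shares over all genes were 8.70%, 7.51%, 6.69% and 10.1% on days 3, 5, 7 and 10. Between NP-IWP2 and NP-ctrl cells there were 3, namely NPR1 lower on days 7 and 10 and NPPA higher on day 10. The shares over all genes there were 4.15%, 2.97%, 7.26% and 9.35%. No test goes with these counts, since each compares single libraries.

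Fitted over all 4 days with day as a block, none of the 5 tested genes passed edgeR's quasi-likelihood test at an adjusted p under 0.05 in any comparison of arms. The shares of all genes that passed were 4.40% between passaged and NP-ctrl cells, 1.33% between passaged and NP-IWP2 cells and 0.0189% between NP-IWP2 and NP-ctrl cells. The 3 comparisons share libraries pairwise. At an unadjusted p under 0.05 there were 4 of 5 in the first comparison (NPPA, NPPB, NPR1 and NPR2), 3 in the second (NPPA, NPPB and NPR1) and 0 in the third, where the shares of all genes were 19.2%, 12.9% and 4.76%. Between passaged and NP-ctrl cells the fitted log2 change was -4.02 ± 1.13 (SE) for NPR1 (adjusted p = 0.0710 by edgeR), -0.51 ± 0.16 for NPR2 (0.0946), 1.72 ± 0.68 for NPPA (0.192), 2.66 ± 1.14 for NPPB (0.229) and -0.34 ± 0.41 for CORIN (0.726). Between passaged and NP-IWP2 cells it was -3.19 ± 1.09 for NPR1 (adjusted p = 0.229 by edgeR) and 2.67 ± 1.11 for NPPB (0.338).

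These calls depended on the days, the filter and the tool. Without day 3, NPPB and NPR1 passed in both comparisons of passaged cells. NPPB was then higher in passaged than in NP-ctrl cells by 3.6 ± 0.60 on the log2 scale (adjusted p = 0.00476 by edgeR) and NPR1 lower, at -5.99 ± 0.59 (adjusted p = 0.000371). Against NP-IWP2 the values were 3.34 ± 0.60 (adjusted p = 0.0172 by edgeR) and -5.10 ± 0.57 (0.00167). The shares of all genes that passed without day 3 were 11.2% and 3.18%. Day 3 was the day on which NPPB pointed the other way and NPR1 differed least. Leaving it out therefore favoured these calls, and no member passed in either comparison with day 5, 7 or 10 left out instead. With day 3 kept but no filter on low genes, edgeR also called NPPB and NPR1 in both comparisons (adjusted p at most 5.95e-05). Of the 41457 genes tested without the filter, 2571 passed against NP-ctrl and 1368 against NP-IWP2. DESeq2 on all 4 days called NPR1 and NPR2 lower in passaged than in NP-ctrl cells (adjusted p = 0.00148 and 0.0272), where 10.2% of genes passed, and NPR1 lower than in NP-IWP2 cells (adjusted p = 0.0314), where 4.22% passed. DESeq2 called none of the 5 between NP-IWP2 and NP-ctrl cells, and limma on log2(FPKM + 1) called none in any comparison of arms.

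Over time, CORIN and NPPA rose between day 3 and day 10 with the arm as a block. The fitted change of CORIN was 6.56 ± 0.57 on the log2 scale (adjusted p = 2.32e-05 by edgeR) and was upward in 3 of 3 arms. That of NPPA was 2.18 ± 0.76 (adjusted p = 0.0450 by edgeR), upward in 2 of 3 arms. These were 2 of 5 genes tested, against 35.0% of all genes. Both reached 1 FPKM only in libraries of day 5 or later, so the filter itself favoured a rise from day 3. The call of NPPA did not hold without the NP-IWP2 arm (adjusted p = 0.319 by edgeR) or without the passaged arm (0.185). The fitted changes of NPPB (0.41 ± 1.30), NPR1 (1.08 ± 1.25) and NPR2 (-0.31 ± 0.18) did not pass. Without the passaged arm, NPR1 rose over these days by 3.46 ± 0.40 (adjusted p = 4.52e-05 by edgeR) and NPPB fell, at -1.46 ± 0.43 (adjusted p = 0.0209), where 34.2% of all genes passed. Single arms showed the split: NPR1 on day 10 was 15.1-fold its day 3 level in NP-ctrl (12.8 to 17.9), 7.83-fold in NP-IWP2 (6.38 to 9.68) and 0.101 of it in passaged cells (0.0521 to 0.179). The difference of these time courses between arms was not tested.

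**Figure D3:**
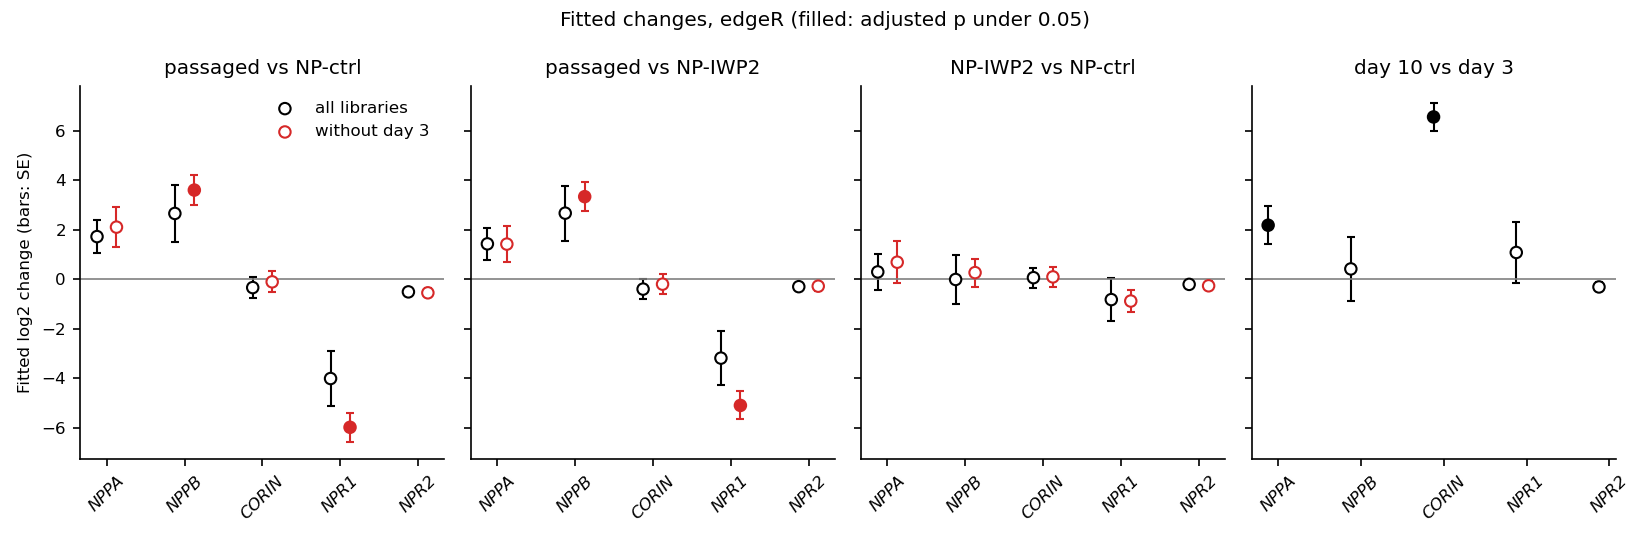
Fitted log2 change of the 5 tested genes with its standard error (vertical axis) in 4 comparisons (panels), from all libraries in black and without day 3 in red, with filled points where the edgeR adjusted p was under 0.05. NPPB and NPR1 are filled only without day 3 in the 2 comparisons of passaged cells, and CORIN and NPPA are filled between day 10 and day 3. Leaving out day 3 favours these calls of NPPB and NPR1, since NPPB pointed the other way and NPR1 differed least on that day.

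Set side by side, the receptor transcripts had another makeup in passaged cells, while NPPB made up most of the peptide transcripts in nearly all libraries from day 3. Its share of the summed peptide FPKM was 91.4%, 98.6% and 96.9% on day 5 in NP-ctrl, NP-IWP2 and the passaged arm, and 93.9%, 96.4% and 97.8% on day 7. On day 3 it was 19.8% in passaged cells, 95.4% in NP-ctrl and 95.6% in NP-IWP2. In passaged cells on day 10 it was 94.2%, when the sum was 83.1 FPKM, compared with 4.53 (NP-ctrl) and 4.94 (NP-IWP2). On day 10 the share was 83.4% in NP-ctrl and 45.1% in NP-IWP2, the lowest of days 5 to 10, with NPPA making up the rest in NP-IWP2. Among the receptors, NPR1 made up 77.6% of the summed FPKM in NP-ctrl and 63.9% in NP-IWP2 on day 10 and 2.91% in passaged cells. NPR2 made up 91.1% there. The ratio of NPR1 to NPR2 was between 0.163 and 0.234 in all arms on day 3. On day 10 it was 3.71 (NP-ctrl), 1.83 (NP-IWP2) and 0.0319 (passaged). These shares describe transcripts per length, and peptide or receptor protein was not measured. They carry the doubt about scaling by length that is described under the processing.

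**Figure D4:**
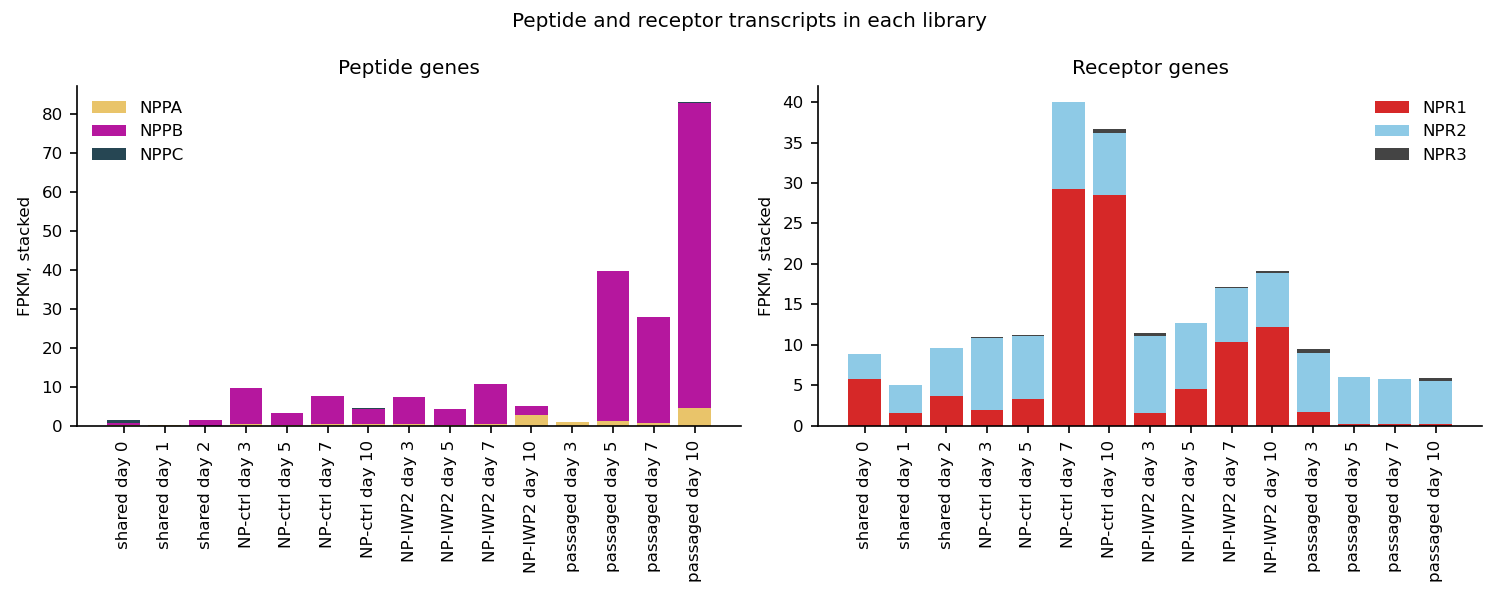
FPKM of the 3 peptide genes (left) and the 3 receptor genes (right), stacked, in each of the 15 libraries. The peptide sum is highest in passaged cells on day 10 at 83.1 FPKM and is mostly NPPB, and the receptor sum is highest in NP-ctrl on day 7 at 40.0 FPKM and is mostly NPR1.

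Because the arms differed in their cell type markers, the members were also set against these. The 8 cardiomyocyte markers summed to 440.6, 3364 and 3758 FPKM in passaged cells on days 5, 7 and 10, to 451.2, 624.8 and 490.4 FPKM in NP-ctrl and to 610.7, 2237 and 1465 FPKM in NP-IWP2, with at least 7 of 8 at 1 FPKM or more. Per unit of TNNT2, the troponin T of heart muscle and one of these markers, NPPB was at 0.247, 0.286 and 2.52 on day 5 in NP-ctrl, NP-IWP2 and the passaged arm, at 0.441, 0.302 and 0.694 on day 7, and at 0.173, 0.0522 and 1.41 on day 10. The result depended on the marker. Over all markers of the list that reached 1 FPKM in every arm, a set of ratios added after the data were seen, NPPB per marker was higher in passaged than in NP-ctrl cells for 6 of 7 markers on day 5, 2 of 8 on day 7 and 7 of 8 on day 10. Compared with NP-IWP2 cells, NPPB per marker was higher in passaged cells for 7 of 7, 6 of 8 and 8 of 8 markers on these days. Per MYH6, the atrial myosin heavy chain, it was at 1.5 in NP-ctrl and 0.321 in passaged cells on day 5, and per MYH7, the ventricular one, at 0.887 and 0.375 on day 10. Per summed FPKM of the list NPPB was at 0.00658, 0.00686 and 0.0871 on day 5, at 0.0116, 0.00465 and 0.00812 on day 7 and at 0.00771, 0.00152 and 0.0208 on day 10, so that on day 7 NP-ctrl was the highest. NPPA per marker was higher in passaged than in NP-ctrl cells for 7 of 8 markers on day 10 and higher than in NP-IWP2 cells for 4 of 8. CORIN per marker was lower in passaged than in NP-ctrl cells for all 8 on day 10. The part of cardiomyocyte content in these results was not tested.

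Other lists were also lowest in passaged cells, as NPR1 was. The 8 hepatic and yolk sac endoderm markers summed to 145.4 to 4305 FPKM in NP-ctrl, 73.2 to 1256 FPKM in NP-IWP2 and 3.06 to 18.98 FPKM in passaged cells over days 5, 7 and 10. In the passaged libraries of days 5, 7 and 10 only 1 of these 8 was at or above 1 FPKM, and 2 had no count on days 7 and 10. The 8 epicardial and fibroblast markers summed to 1341 to 3354, 875.3 to 1053 and 94.75 to 411.4 FPKM in the same arms. Most of this sum on day 10 came from the collagen genes COL3A1 and COL1A1. COL3A1 was at 2351.63, 627.98 and 61.19 FPKM in NP-ctrl, NP-IWP2 and the passaged arm, and COL1A1 at 871.2, 241.86 and 20.57 FPKM. Neither passed in any comparison of arms by edgeR. ALDH1A2 and POSTN in this list were highest in passaged cells on day 5, at 9.28 and 6.46 FPKM. On day 5 NPR1 was higher in NP-IWP2 than in NP-ctrl cells (1.36-fold, 1.16 to 1.61, counting error only). The hepatic and the epicardial sums were lower in NP-IWP2 on that day, each value being from a single library. The 8 endothelial and endocardial markers summed to 131 to 176.3, 112.7 to 135.8 and 28.79 to 129.8 FPKM. On day 10 most of this sum was KDR, a receptor of vascular growth factors, at 93.04, 100.4 and 119.27 FPKM in NP-ctrl, NP-IWP2 and the passaged arm. TEK, the angiopoietin receptor of vessels, was at 22.81, 13.47 and 0.68 FPKM, and CDH5, the cadherin of endothelial junctions, at 1.62, 2.44 and 0.36 FPKM, so these markers were lowest in passaged cells. These 2, KDR and the epicardial genes named above were picked after their values were seen. In the edgeR fit of passaged against NP-ctrl cells, 5 of 8 hepatic and 2 of 8 epicardial markers were lower and none of either was higher. Of the 8 cardiomyocyte markers 3 were higher and none was lower, and none of the 8 endothelial markers passed (1 at an unadjusted p under 0.05). Over all genes 4.40% passed there, and 19.2% had an unadjusted p under 0.05. Against NP-IWP2, 2 of 8 epicardial and 3 of 8 hepatic markers were lower in passaged cells, beside 1.33% of all genes called. The 2 epicardial ones were WT1 at -7.11 ± 0.713 and TBX18 at -6.935 ± 1.369 on the log2 scale (adjusted p = 0.00355 and 0.0356 by edgeR). ALDH1A2 was higher in that comparison (2.62 ± 0.54 on the log2 scale, adjusted p = 0.0420 by edgeR). The part of these cell types in the NPR1 result was not tested.

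**Figure D5:**
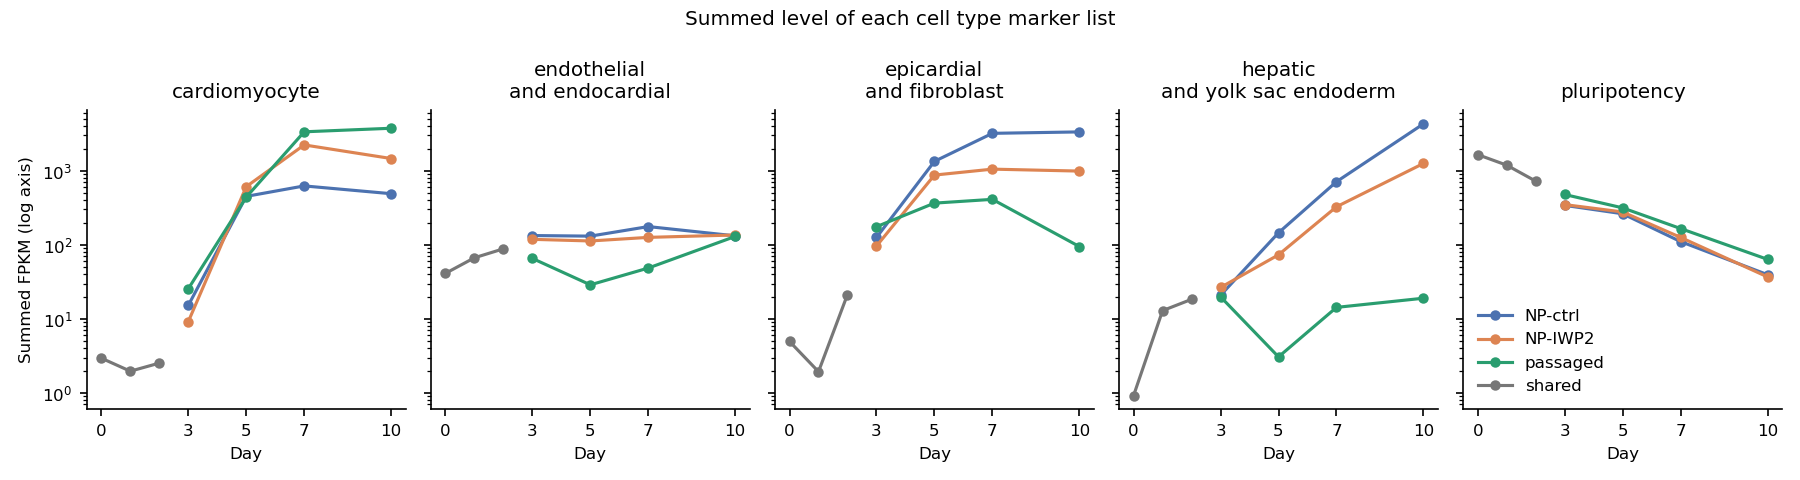
Summed FPKM of each marker list (vertical axis, log scale) against day, 1 panel per list and 1 line per arm. The hepatic and the epicardial lists stand highest in NP-ctrl and lowest in passaged cells from day 5, the cardiomyocyte list is highest in passaged cells on days 7 and 10, and the endothelial list lies between 129.8 and 135.8 FPKM in all arms on day 10, mostly from KDR, while TEK in it was at 22.81 FPKM in NP-ctrl and 0.68 FPKM in passaged cells. The epicardial sum on day 10 is mostly from the collagen genes COL3A1 and COL1A1.

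Genes that process or degrade the peptides were examined next. Of the 6 listed, 5 were tested, and 2 were lower in passaged than in NP-ctrl cells and none was higher, beside 4.40% of all genes called. These were MME, neprilysin, which degrades natriuretic peptides (-3.99 ± 0.84 on the log2 scale, adjusted p = 0.0240 by edgeR), and DPP4, a dipeptidyl peptidase of the cell surface (-4.68 ± 0.98, adjusted p = 0.0241). MME was at 37.73, 5.33 and 0.23 FPKM in NP-ctrl, NP-IWP2 and the passaged arm on day 10. The median fitted change of the 5 was -1.62 against 0.00 over all genes. None passed against NP-IWP2 (2 at an unadjusted p under 0.05, beside 12.9% of all genes) or between NP-IWP2 and NP-ctrl (0 of 5). The list medians in these comparisons were -0.73 and -0.89, and those of all genes 0.02 and -0.01. From day 3 to day 10 IDE, the insulin-degrading enzyme, and DPP4 rose (1.13 ± 0.18 and 3.42 ± 1.15, adjusted p = 0.000672 and 0.0385 by edgeR), beside 35.0% of all genes called. FURIN, a convertase that cleaves the B-type prohormone, was at 14.44 to 50.61 FPKM in all libraries and its fitted changes between arms did not pass.

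Downstream of the receptors, 9 of the 10 listed genes of cyclic GMP synthesis, breakdown and effect were tested. None passed between arms by edgeR, with 5 at an unadjusted p under 0.05 between passaged and NP-ctrl, 2 between passaged and NP-IWP2 and 1 between NP-IWP2 and NP-ctrl cells, beside 19.2%, 12.9% and 4.76% of all genes. The list medians were -0.30, -0.48 and -0.10 there. The pair with the largest mean difference was PDE3A, a phosphodiesterase, and GUCY1A1, a subunit of the soluble guanylate cyclase. PDE3A was at 19.29, 11.44 and 2.96 FPKM on day 5 in NP-ctrl, NP-IWP2 and the passaged arm, and GUCY1A1 at 33.06, 25.07 and 5.25 FPKM. Between day 3 and day 10, 4 of the 9 rose and 1 fell, beside 35.0% of all genes called, with a list median of 0.35 against 0.04 over all genes. GUCY1A1 rose by 6.50 ± 0.85 and its partner subunit GUCY1B1 by 2.88 ± 0.53 (adjusted p = 0.000255 and 0.00173 by edgeR). PRKG1, the kinase that cyclic GMP activates, rose by 1.99 ± 0.33 and PDE3A by 4.79 ± 0.84 (adjusted p = 0.00101 and 0.00144). The gene that fell was PDE9A, a phosphodiesterase specific for cyclic GMP, at -1.01 (adjusted p = 0.00588 by edgeR), named after its value was seen.

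All 17 listed factors that are known to bind or control NPPA and NPPB were tested. In passaged against NP-ctrl cells 2 were higher, none was lower and 15 did not pass, with a median of 0.26, beside 4.40% of all genes called. MEF2C, a factor of early muscle, was higher by 2.90 ± 0.35 on the log2 scale and MYOCD, a coactivator of SRF in muscle, by 2.35 ± 0.49 (adjusted p = 0.00150 and 0.0233 by edgeR). Against NP-IWP2 TBX5, a T-box factor of the atria and left ventricle, was lower, at -2.33 ± 0.39 (adjusted p = 0.0206 by edgeR). None was higher there, and the median was -0.10, beside 1.33% of all genes called. None passed between NP-IWP2 and NP-ctrl cells (6 at an unadjusted p under 0.05, beside 4.76% of all genes, median 0.52). NKX2-5, the homeodomain factor of early heart cells, was among the 2 with the largest mean difference there. On day 5 it was at 1.31, 7.80 and 110.04 FPKM in NP-ctrl, NP-IWP2 and the passaged arm, and on day 10 at 26.15, 92.30 and 286.55 FPKM. From day 3 to day 10, 10 of the 17 rose and none fell, beside 35.0% of all genes called (3790 higher and 3633 lower), with a median of 2.15 and with MEF2C at 7.33 ± 0.48, TBX5 at 4.92 ± 0.49, NR2F2 at 4.30 ± 0.61 and MEF2A at 2.45 ± 0.32 (adjusted p at most 0.000382 by edgeR).

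Sites that such factors can bind were looked for in the 250 bases before RefSeq transcript starts on GRCh38.p14, in a table that held 6 of the 7 members and not NPPB. These starts need not be the outer end of the gene as given above: the windows of NPPA and NPR3 lie inside those genes and that of CORIN overlaps its gene. The letters searched on both strands were GATAA for GATA factors, AAGTG for NKX2-5, CATTCC for TEAD factors, GTGTGA for T-box factors, and the CArG box of SRF. Of the 35116 windows of this length in that collection, 20.4% held GATAA, 37.6% AAGTG, 11.9% CATTCC, 9.90% GTGTGA and 1.16% a CArG box. The NPPA window held 2 matches to GATAA and 2 to AAGTG. A stretch of 30 bases, 110 to 81 bases before the RefSeq start (chr1:11847864-11847893, minus strand), is shown because it held 3 of these 4, which are in capitals. It lies within the NPPA gene as the deposited table bounds it, and inside an exon of a CLCN6 transcript of the opposite strand.
NPPA site: tctCACTTggcagctTTATCactgcAAGTG
The NPPC window held 1 match to GATAA and 1 to AAGTG, and that of NPR2 held 1 to AAGTG. NPR3 had 2 windows with 1 match to AAGTG each, beside 1 to GTGTGA or CATTCC. The windows of CORIN and NPR1 held none of these letters. A match is a description of the letters and not a bound site, and no binding was measured.

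Finally, the genes with the most similar level across libraries were named from 10171 protein-coding genes of at least 5 FPKM in some library, by Pearson's r of log2(FPKM + 1) over the 15 libraries, which share 3 starting libraries and depth and are given as description only. TMEM200A (r = 0.951) and IGSF1 (0.917) were among the 3 genes most like NPR1. NPPB was most like MCCC1 (0.898), FN3K (0.896) and SNAPC5 (0.889), and NPPA most like GOLIM4 (0.917), NFYB (0.907) and RNF115 (0.900). CORIN was most like GPRIN3 (0.969), AMY2B (0.967) and LAMA4 (0.956), and NPR2 most like LRRC41 (0.957), PHYKPL (0.955) and LRRC75B (0.947). Among the members themselves the highest r was that of NPPA with CORIN (0.785), and NPPA with NPPB stood at 0.547. NPR1 was negative with both NPPB (-0.372) and NPPA (-0.236). No member was among the 3 genes most like another.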

How the data were processed

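Bulk RNA was sequenced from 15 libraries of H1 cells. Per the labels, the processing tools were Cutadapt (1.9.1), HISAT2 (2.0.1), HTSeq (0.6.1) and DESeq2, with build hg38. The annotation release, the counting mode and the use of strand are not given in the sources used here. HISAT2 and HTSeq are usually run on short reads, but the SMRTbell kit in the labels is one for long reads, and values scaled by length carry that doubt. The authors deposited whole-number counts of reads per gene, and FPKM values that the authors scaled from them by exonic length and total count. Recomputed FPKM differed from the deposited ones by at most 0.005. The deposited annotation columns, such as gene length and position, were used as given. Coordinates of 6 of the 7 members were identical in GENCODE release 44. The exception was NPR2, whose start differed.

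Groups and days were taken from the sample titles. Counts of the 21206 genes that reached 1 FPKM in some library were fitted with edgeR (4.0.16, R 4.3.3) after TMM normalization, over 12 libraries with terms for arm and day, and p-values were adjusted over all genes by the Benjamini-Hochberg method. Standard errors of edgeR changes were derived from the test, as the size of the change over the square root of its F statistic. The fit was tested on simulated data. Single libraries were compared by differences of log2(FPKM + 1), with 1 as the pseudocount, and by ratios with exact 95% intervals. No fold was given where both libraries had at most 3 counts. Alternatives were DESeq2 (1.42.0), limma (3.58.1) on log2(FPKM + 1), median-of-ratios (RLE) normalization, mitochondrial genes left out, no filter, a filter of 5 FPKM, only the compared arms, each day or arm left out, a pseudocount of 0.1, TPM and a threshold of 2. Named were all members, at most 4 genes of each list and contrast with the lowest adjusted p among those past the test or, where none passed, the 2 with the largest mean difference, and the 3 genes most like each member; some items that these rules would name are not reported here. The members and the lists were chosen with earlier results of these data known.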

Additional observations from a re-analysis of the deposited data

Results flagged for a closer look

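NPPB was singled out because its difference between arms pointed one way on 1 day and the opposite way on others, both by at least 1 in log2(FPKM + 1). Between passaged and NP-ctrl cells the difference was -3.08 on day 3 and 4.05 on day 10, and between passaged and NP-IWP2 cells it was -2.75 on day 3 and 4.62 on day 10. The 2 comparisons share the passaged libraries. With 1 library per arm and day, the difference between days was not tested.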

How the results depend on the processing

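No paired analysis was possible because each arm and day had 1 library and the labels give no replicate numbers; day, or arm in the comparison of days, was a block in every fit. In passaged against NP-ctrl cells, none of the 5 tested genes passed in the edgeR fit, but 2 did with DESeq2, 2 without a filter on low genes (NPPB and NPR1), and 0 to 2 with single days left out, 2 only without day 3. Against NP-IWP2, 1 passed with DESeq2, 2 without the filter and 0 to 2 with single days left out. From day 3 to day 10, 2 passed, against 1 with limma and 1 to 3 with single arms left out. Differences of at least 1 between NP-IWP2 and NP-ctrl cells numbered 3, but 7 at a pseudocount of 0.1, 5 in TPM, and 0 at a threshold of 2. Between passaged and NP-ctrl cells on day 10 the median difference of all genes was -0.09 in FPKM and -0.38 in TPM. Directions turned only in changes that had not passed in the edgeR fit of all arms and days. Among them, NPPB from day 3 to day 10 passed after turning, at -1.46 without the passaged arm (adjusted p = 0.0209 by edgeR). CORIN in passaged against NP-ctrl cells was 0.056 with limma (adjusted p = 0.935). With single days left out, NP-IWP2 against NP-ctrl ran from -0.65 to 0.69 for NPPA, from -0.26 to 0.27 for NPPB and from -0.21 to 0.25 for CORIN, the negative values of NPPA and CORIN without day 10. With single arms left out, the change from day 3 to day 10 ran from -1.46 to 1.99 for NPPB and from -0.60 to 3.46 for NPR1. Of 197 refitted changes of these genes, 174 kept direction and side of the threshold, 3 no longer passed, 12 newly passed and 8 turned. Of 252 recomputed differences between single libraries, 15 moved across 1. Over all genes, the number past the test was 933 for passaged against NP-ctrl, 2150 with DESeq2, 163 with limma, 2571 without the filter, 109 with only the compared arms and 133 to 2373 with single days left out. Against NP-IWP2 it was 282, 892, 6, 1368, 163 and 13 to 675, and between NP-IWP2 and NP-ctrl 4, 61, 0, 372, 277 and 0 to 35. A filter of 5 FPKM, which tested fewer genes, gave 183 and 0 in these 2 comparisons. The fits without a filter tested more, 41457 genes compared with 21206. The cause of these shifts was not tested. At 1 to 79 counts per library, NPPA is limited by depth in all libraries.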
